A study of Homo sapiens with 4 samples.

Results

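Control cultures of MDA-MB-231, an established human breast carcinoma line known for lacking hormone receptors and for its mesenchymal character, were compared between the siRNA and the shRNA arms of a study of ZEB2 loss. The members are all genes whose value reached a filter level on at least 1 of the 4 arrays, so some were under it on a control array. They number 15082 of the 19775 genes with a probe set of their own, after genes under a log2 value of 4.77 on all 4 arrays had been left out. The difference described throughout is the siRNA control minus the shRNA vector control, with 1 array a side, on the log2 scale, where 1 unit is 2-fold.

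The shRNA vector control was a line stably transduced with the pLVTH vector, and its counterpart, called shRNA ZEB2, was stably transduced with an shRNA against ZEB2. The siRNA control received a luciferase siRNA pool and its counterpart, called siRNA ZEB2, a ZEB2 siRNA pool, each at 20 nM with the Dharmafect reagent. Transfected cells were washed after 24 hours and kept for 48 hours in culture medium before harvest. All cultures were the same line in Leibovitz-15 medium with 10% FCS. Labelled cRNA was made from 2 microg of total RNA for both shRNA arrays and from 100 ng for both siRNA arrays. Method and labelling input therefore cannot be told apart in any value below. The labels do not say how many clones the transduced lines came from, or whether the cultures were grown in parallel.

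Both control arrays kept ZEB2, a zinc-finger repressor of epithelial genes. ZEB2 read 6.12 in the shRNA vector control and 6.56 in the siRNA control, against 3.52 and 3.51 on the arrays where it was targeted. The controls thus differed by 0.45 in ZEB2 itself, far less than either differed from its own knockdown. Below, 4 values after a gene name stand in the order shRNA vector control, shRNA ZEB2, siRNA control and siRNA ZEB2. The difference of siRNA ZEB2 minus shRNA ZEB2, called the ZEB2-lowered pair, shares no array with the control pair. It does share the difference in method and labelling input, so it shows which differences between the controls appeared again. It has no other standing as a replicate.

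The genes that mark this line were bright on every array. VIM, the mesenchymal intermediate filament, read 14.12, 13.97, 13.79 and 13.64, and CD44, a hyaluronan receptor, read 12.57, 12.19, 12.14 and 12.22. ESR1, the estrogen receptor, read 6.08, 6.25, 6.17 and 6.54, and PGR, the progesterone receptor, was under 4.77 on every array. GATA3, CDH1 and EPCAM, listed as dim in this line, were higher in the siRNA control and are described with the epithelial genes. Summed over the markers of each other cell type, both siRNA arrays were above both shRNA arrays, through a few genes. The summed log2 values of 6 leukocyte markers were 29.05, 28.17, 29.70 and 30.03, with 2 of 6 under the filter level on each array. CD14, the monocyte receptor of bacterial lipopolysaccharide, read 5.21, 4.98, 7.30 and 6.94, while the other 5 were lower in the siRNA control and the pan-leukocyte gene PTPRC was under the filter level throughout. The sums over 6 fibroblast markers were 31.60, 35.68, 36.92 and 37.53, with 1 or 2 of 6 under that level. Among them LUM differed by 6.07, whereas DCN and COL1A1, the defining fibroblast genes, differed by -0.14 and -0.60. The sums over 4 endothelial markers were 21.49, 20.84, 22.71 and 22.86, with 1 of 4, CDH5, under the level on each array, and no marker of these 4 differed by 2-fold. The part of other cells in the differences was not tested.

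As background, an siRNA is a short RNA duplex carried into the cell by lipid, whereas an shRNA vector is integrated and transcribed as long as the line is kept. A few gene programmes recur in the values below. NF-kB is a family of dimeric factors held in the cytoplasm by inhibitors such as NFKBIA, and its release switches on cytokines, chemokines and the inhibitors themselves. Interferon signalling induces antiviral genes through a response element shared by their promoters. ATF4 and the SREBP factors answer shortage of amino acids and of sterol with the enzymes that make them, and E2F factors drive the genes of DNA replication.

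The 2 control arrays differed by at least 2-fold in 2377 of 15082 genes (15.8%). Of these, 1625 (10.8%) were higher and 752 (4.99%) lower in the siRNA control, so 68.36% of the 2-fold genes were higher. When each gene was averaged over its probe sets instead, 1068 were higher and 822 lower, and that share was 56.51%. The median difference over all genes was 0.056, and at 8-fold 124 genes were higher and 25 lower. The shares over all genes at 2-fold, 10.8% higher and 4.99% lower, are the background for every list count at 2-fold below. For counts of genes higher or lower to any extent, the background is 8138 genes higher (53.96%) and 6907 lower. In the ZEB2-lowered pair 1770 genes (11.7%) differed by 2-fold, 1181 higher (7.83%) and 589 lower (3.91%). Both pairs agreed at 2-fold in 780 higher genes (5.17%) and 347 lower genes (2.3%). For scale, the siRNA ZEB2 and siRNA control arrays differed by 2-fold in 26 genes, and the shRNA ZEB2 and shRNA vector control arrays in 674. The 2 control arrays thus differed in more genes than either knockdown array did from its own control. Each knockdown pair shared its method and labelling input, whereas the control pair differed in both, so these counts are not like for like. In bulk samples such as these, fewer cells of a kind and less RNA per cell cannot be told apart.

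Of the 2377 genes, 1127 (47.4%) were 2-fold different the same way in the ZEB2-lowered pair and 935 (39.3%) went the same way by less, but by more than 0.32 on the log2 scale. A further 270 (11.4%) were within 0.32 of 0 there. Opposite differences over 0.32 but under 2-fold were found for 35 (1.47%), and 10 (0.421%) were 2-fold opposite. Across the 15082 genes the differences in the pairs had a Pearson r of 0.748 and a Spearman rho of 0.705. These describe genes that are not independent, on arrays that share the method difference, and carry no p. At the threshold, C1orf54 stood just inside at 1.0002 and ALKBH4 just outside at 0.9996.

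**Figure D1:**
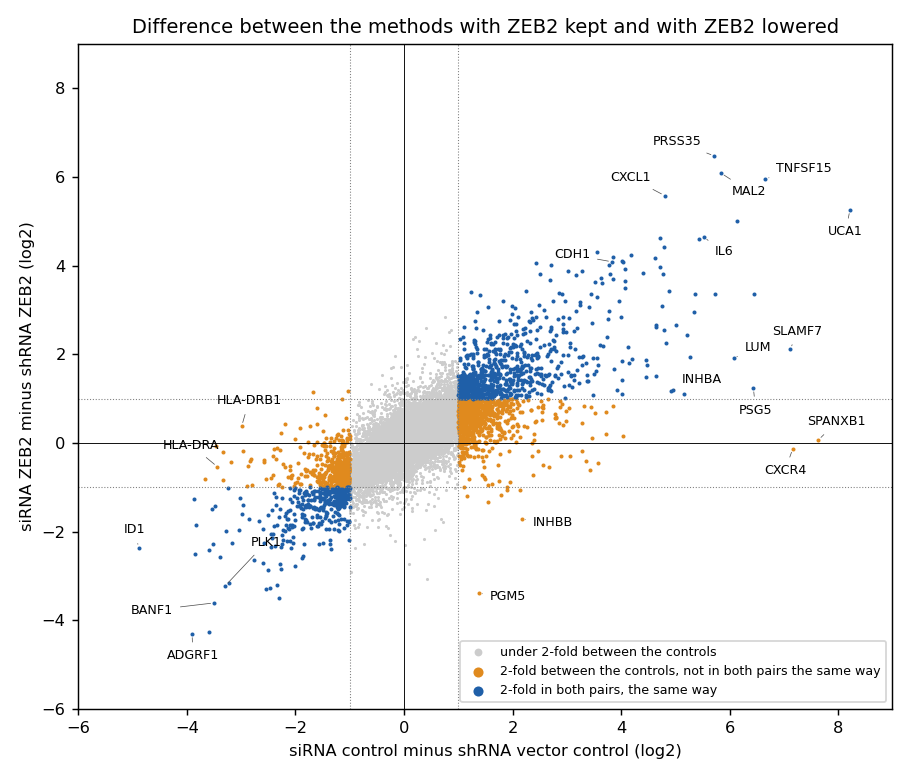
Difference between siRNA and shRNA arrays for each of 15082 genes, in log2 units, with the control pair on the horizontal axis and the ZEB2-lowered pair on the vertical axis, 1 point per gene. Many genes far from 0 lie along the diagonal, while CXCR4, SPANXB1 and the HLA class II genes lie near the horizontal line at 0, and INHBB and PGM5 lie below it.

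Several control probe sets differed between the shRNA and the siRNA arrays, which differ in both method and labelling input. They are given here because every comparison between the methods shares them. In the ISGF3A control, which has probe sets along one transcript, the 3′ probe set read 9.43, 9.58, 9.23 and 9.41. Its 5′ probe set read 7.48, 8.20, 4.79 and 4.89. The 3′ end was thus near level over the arrays, while the 5′ end was lower on both siRNA arrays. The 3′ minus 5′ difference was 0.50 and 0.52 for ACTB on the siRNA arrays, against -0.038 and -0.033 on the shRNA arrays, and for GAPDH it was 0.12 and 0.19 against -0.074 and -0.071. The 18S ribosomal RNA 3′ probe set read 8.22, 8.48, 11.20 and 11.16, and the 28S 5′ probe set 8.42, 8.91, 11.89 and 12.10, so both were higher on each siRNA array than on each shRNA array. The 28S 3′ probe set, at 5.37, 5.27, 5.08 and 5.47, showed no such step. The part of these measures in the gene differences was not tested.

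**Figure D2:**
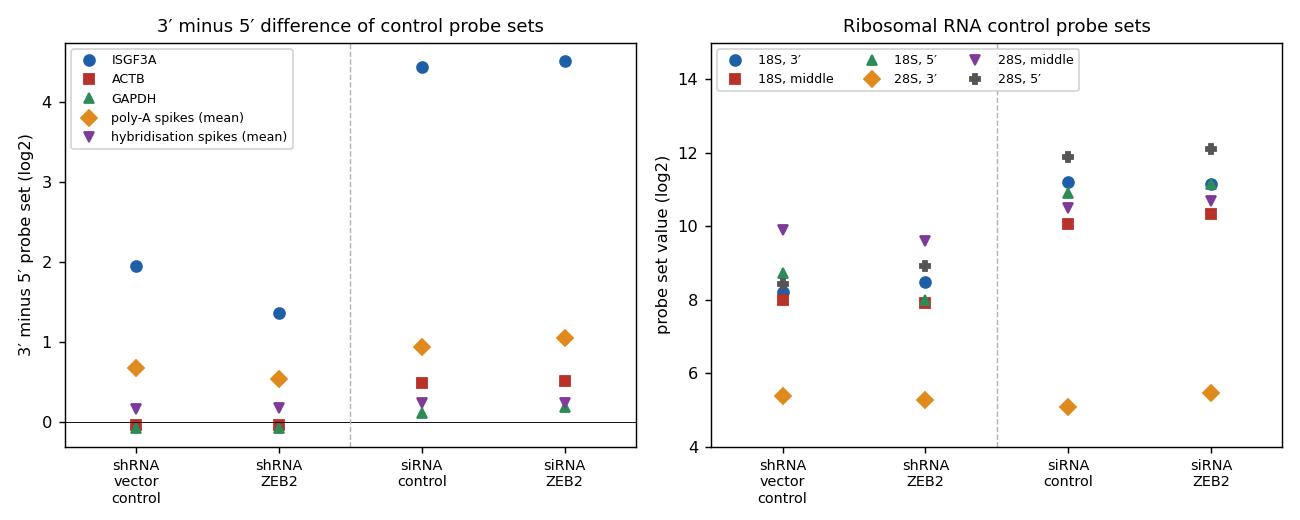
Control probe sets on each of the 4 arrays, 1 point per array, with the 3′ minus 5′ difference on the left and ribosomal RNA probe set values on the right, both in log2 units. The 3′ minus 5′ difference of ISGF3A is 4.44 and 4.52 on the siRNA arrays against 1.95 and 1.37 on the shRNA arrays, and 5 of 6 ribosomal RNA probe sets are higher on both siRNA arrays.

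Cytokine and chemokine genes under NF-kB were higher in the siRNA control, with similar medians in both pairs. Of 40 genes listed, 35 were kept, 33 of them higher in the siRNA control, with a median difference of 1.61 against 0.056 for all genes. At 2-fold 22 were higher and 1 lower. IL6, the fever and acute-phase cytokine, read 5.98, 7.50, 11.51 and 12.13, a difference of 5.52 or 46-fold. CXCL1, a neutrophil chemokine, read 6.36, 5.76, 11.16 and 11.34, and CXCL8, its close relative, read 8.90, 8.04, 11.61 and 12.04. In each of these genes both siRNA arrays lay above both shRNA arrays, with a gap of several units and no overlap. CCL2, which draws monocytes, read 4.15, 4.23, 7.99 and 7.93, flat within each method. PTGS2, the inducible prostaglandin synthase, read 4.52, 4.79, 8.27 and 7.57. IL1A, an alarm cytokine, read 5.70, 5.69, 8.93 and 8.81.

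The inhibitor NFKBIA, itself a target of NF-kB, read 9.66, 9.88, 12.37 and 12.51, a difference of 2.71 between the controls and 2.62 in the ZEB2-lowered pair. Its other bright probe set differed by 0.33 between the controls, and the mean of its probe sets by 1.52. LTB, which encodes lymphotoxin beta, differed by 3.55 and 4.31, though another of its probe sets went the opposite way (-0.29). The gene lower at 2-fold, NFKB2, the precursor of a non-canonical NF-kB subunit, is named after its value was seen: it read 8.23, 8.36, 5.65 and 6.09. Its other bright probe set differed by less than 2-fold. In the ZEB2-lowered pair the list's median was 1.42, with 19 genes higher and 2 lower at 2-fold, and 16 were 2-fold higher in both pairs. The list was drawn up with earlier results of these data known, so its direction is a description.

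The kappa B motif, GGANTTTCC on either strand, lay in the promoter windows (250 bases before the start site to 50 after) of 17 of the 33 list genes with a RefSeq promoter entry, and in 2.01% of the windows of 27305 genes. The list gathers known NF-kB targets, so the share is no finding. The 15 kept genes with the motif had a median difference of 1.96 and the 13 without it 1.61, so genes with and without these letters were both higher. Stretches around the motif are shown for 3 genes whose values are given above, from RefSeq (GRCh38.p14), 5′ to 3′ on the strand of the gene, with the motif in capitals.
CXCL1 (chr4:73869285-73869353, + strand): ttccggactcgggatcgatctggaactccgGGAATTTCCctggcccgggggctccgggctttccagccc
IL6 (chr7:22727098-22727166, + strand): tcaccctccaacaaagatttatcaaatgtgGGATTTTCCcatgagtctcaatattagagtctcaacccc
CXCL8 (chr4:73740448-73740516, + strand): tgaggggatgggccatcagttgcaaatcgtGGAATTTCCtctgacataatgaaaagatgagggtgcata
Counted from the start site, the motif began at base -78 in CXCL1, -72 in IL6 and -91 in CXCL8.

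Receptors for cytokines and chemokines were mixed. Of 31 kept, 7 were 2-fold higher and 0 lower, with a median of 0.22. TNFRSF9, a costimulatory receptor of the TNF family, read 5.24, 6.43, 7.59 and 8.30, and IL1R1, the receptor of interleukin 1, read 6.10, 6.64, 8.13 and 8.22. OSMR, the oncostatin M receptor, read 10.01, 10.22, 11.42 and 11.33. These 3 were higher on both siRNA arrays than on both shRNA arrays. CXCR4, the receptor of CXCL12, behaved otherwise and is described with the genes in which the shRNA vector control stood alone. Among ligands outside the list, TNFSF15, a TNF-family cytokine, read 5.82, 6.65, 12.48 and 12.61, the fifth largest difference between the controls at 6.66. TNFSF9, the ligand of TNFRSF9, read 6.09, 6.10, 10.26 and 10.34. C3, the central complement component, read 5.38, 6.34, 11.52 and 11.34, and its difference was 6.14 between the controls and 5.0 in the ZEB2-lowered pair.

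Interferon-stimulated genes were also higher in the siRNA control. Of 40 kept, 30 were higher and 10 lower, the median was 0.88, and at 2-fold 19 were higher and 1 lower. MX1, an antiviral GTPase, read 6.21, 6.94, 9.67 and 9.65, a difference of 11-fold. RSAD2, the radical enzyme viperin, read 4.37, 4.73, 7.14 and 6.85, and IFI27 read 8.78, 9.49, 11.22 and 11.46. All 3 were higher on both siRNA arrays, with siRNA control and siRNA ZEB2 close together. USP18, which removes ISG15 from proteins, read 5.09, 4.99, 6.78 and 6.74, and IFI6 read 6.84, 6.52, 8.40 and 8.86. The member lower at 2-fold, named after its value was seen, was GBP1, a guanylate-binding protein, at 9.54, 8.89, 8.38 and 8.72.

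The list stood higher still in the ZEB2-lowered pair, at a median of 1.49 with 26 genes at 2-fold higher and 0 lower, and all 19 higher genes of the control pair were 2-fold higher there too. IFIT1, named after its value was seen, read 10.23, 8.60, 10.48 and 10.72, so shRNA ZEB2 was below the shRNA vector control there. Among sensors of double-stranded RNA, RIGI read 9.02, 8.26, 10.77 and 10.70 and IFIH1 read 6.84, 5.85, 7.87 and 7.73, and these were the 2 of 18 kept sensor genes at 2-fold, both higher. Of 14 genes of the RNA interference machinery, 1 was at 2-fold, AGO4, an Argonaute protein, which read 6.57, 7.55, 8.69 and 8.76. The list's median was 0.29, and it was -0.21 when each gene was averaged over its probe sets.

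The ISRE motif, GAAA repeated with any 2 bases between the copies, on either strand, was present in the windows of 24 of 34 list genes with a promoter entry and in 4.38% of all genes' windows. The 23 kept genes with it had a median difference of 1.05 and the 8 without it 0.93. Again the list holds known targets, so neither share is a result. The stretches for the pair of genes with the largest differences follow, with the motif in capitals. In RSAD2 the capitals are the reverse complement of the motif.
MX1 (chr21:41420539-41420607, + strand): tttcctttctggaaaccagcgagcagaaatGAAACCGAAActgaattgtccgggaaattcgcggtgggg
RSAD2 (chr2:6877602-6877671, + strand): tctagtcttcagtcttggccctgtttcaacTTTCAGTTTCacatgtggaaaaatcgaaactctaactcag

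**Figure D3:**
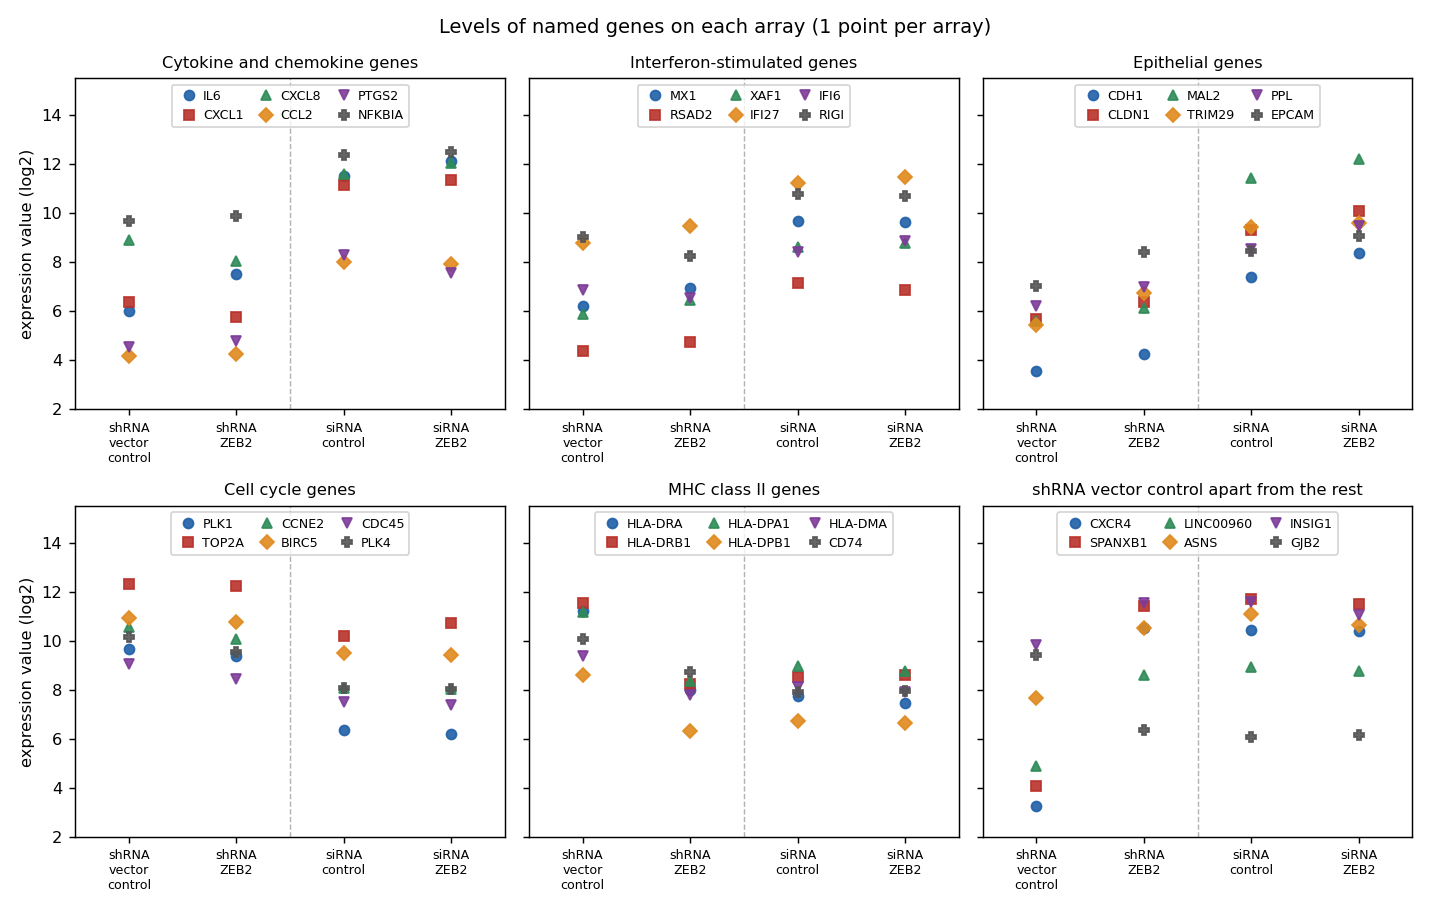
Expression values in log2 units of 36 named genes on the 4 arrays, 1 point per gene and array, with the shRNA arrays left and the siRNA arrays right of the dashed line. In the upper panels and the cell cycle panel the arrays separate by method, except for EPCAM, where shRNA ZEB2 is close to the siRNA control. In the lower middle and lower right panels the shRNA vector control lies apart from the other 3 arrays, though for CD74 shRNA ZEB2 is between the controls.

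Antigen presentation by MHC class II went the other way, mostly through high values on the shRNA vector control array. Of 16 kept genes of the pathway 14 were lower in the siRNA control, 8 of them at 2-fold, with 1 higher at 2-fold and a median of -0.90. HLA-DRA, the alpha chain of HLA-DR, read 11.20, 7.99, 7.76 and 7.45. HLA-DRB1, its partner, read 11.53, 8.23, 8.53 and 8.61, and HLA-DPA1 read 11.16, 8.34, 8.97 and 8.76. On each of these the shRNA vector control was above the other 3 arrays by 2.19 or more, and those 3 lay within 0.63 of each other. CD74, the chaperone of class II molecules, read 10.06, 8.71, 7.91 and 7.94, with shRNA ZEB2 between the controls. In the ZEB2-lowered pair the median was 0.081, with 0 genes lower at 2-fold. HLA-DRB genes are so alike that a probe set may pick up several of them. The member that was higher, CTSS, a lysosomal protease that trims the CD74 chain, read 8.19, 7.36, 9.80 and 9.59 and was higher in both pairs. MHC class I genes did not share the pattern, with 1 of 20 at 2-fold higher (TAP1, the peptide transporter, at 1.17) and 1 lower (NLRC5, the class I transactivator, at -1.35).

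Epithelial junction and polarity genes were higher in the siRNA control, although ZEB2 was kept in both. Of 32 kept, 27 were higher, 9 of them at 2-fold, and 0 were lower at 2-fold, with a median of 0.59. CDH1, which encodes E-cadherin and is a target of ZEB2 repression, read 3.54, 4.26, 7.37 and 8.35. On the shRNA arrays it was under the filter level, so its difference of 3.83 depends on the dim end of the scale. CLDN1, a tight junction protein, read 5.69, 6.35, 9.31 and 10.08, and OCLN, another, read 8.23, 8.79, 9.75 and 9.81. EPCAM, an epithelial adhesion protein, read 7.01, 8.40, 8.47 and 9.07. MAL2, which carries proteins to the apical membrane, was outside the list and read 5.58, 6.13, 11.43 and 12.22, among the 20 largest differences. In CLDN1 and MAL2 the separation by method exceeded the separation by ZEB2 state on either side.

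The ZEB2-lowered pair gave a median of 0.66 for the junction list, with 11 genes at 2-fold higher and 7 shared with the control pair. With the mean of all probe sets the control median was 0.24, and PARD6B, a polarity protein that differed by 1.68 in its brightest probe set, stood at -0.0074. Luminal markers were higher at 2-fold in 5 of 17, among them CD24, a surface mucin, at 4.78, 8.44, 11.24 and 11.80, MUC1 at 6.42, 6.23, 7.94 and 8.19 and GATA3, a luminal transcription factor, at 8.18, 8.60, 9.27 and 9.48. Basal markers were mixed, with 4 of 14 higher (28.6%) and 2 lower (14.3%), against 10.8% and 4.99% of all genes. TRIM29 among them read 5.45, 6.75, 9.45 and 9.60, and KRT15, a basal keratin, read 8.02, 5.98, 6.50 and 5.51. Of 9 keratins kept, 1 was higher and 1 lower at 2-fold (11.1% each way).

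Mesenchymal markers were not lower as a group. Of 21 kept, 4 were 2-fold higher and 1 lower, with a median of 0.28. TNC, the matrix protein tenascin C, read 6.95, 7.46, 10.50 and 10.74, and S100A4, a calcium-binding protein of motile cells, read 10.12, 12.04, 13.07 and 13.34. MYL9, a myosin light chain, was the lower gene at 10.44, 10.76, 8.89 and 9.10. Its other bright probe set went the opposite way (0.25), and the mean of its probe sets was -0.65. SNAI2, the EMT factor also called Slug, read 8.88, 10.85, 11.68 and 11.42 and was the sole member at 2-fold among 6 EMT factors kept. To any extent 14 of 21 mesenchymal markers were higher, where 53.96% of all genes were, so the count is not read as a shared rise. VIM differed by -0.33.

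Matrix proteases and inhibitors were higher at 2-fold in 10 of 30 and lower in 2, with a median of 0.40. MMP3, stromelysin, read 4.84, 4.79, 7.77 and 7.29, and MMP1, interstitial collagenase, read 10.95, 11.25, 12.92 and 12.35. The cystatins CST1 and CST4, inhibitors of cysteine proteases, read 7.96, 7.90, 11.14 and 10.88 and 8.49, 8.49, 11.28 and 10.93. In these 4 genes both siRNA arrays lay above both shRNA arrays. ADAMTS1, a secreted protease, read 4.05, 6.86, 7.91 and 7.68, with the shRNA vector control lowest by 2.81, and ADAM19 was lower at 8.94, 8.08, 7.24 and 6.80. Of these 10, 9 were higher at 2-fold in the ZEB2-lowered pair as well.

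Collagens, laminins and other matrix genes had 6 of 33 higher and 6 lower at 2-fold, with a median of -0.14. That was 18.2% each way, against 10.8% of all genes higher and 4.99% lower. LUM, the small proteoglycan lumican, read 2.92, 6.80, 8.99 and 8.71, and COL12A1 read 8.80, 10.29, 11.32 and 11.40. COL13A1, a transmembrane collagen, read 12.26, 11.54, 10.61 and 10.08, and COL8A1 read 11.40, 11.68, 10.09 and 10.33. LUM rested on 1 of its probe sets, and the mean of both gave 3.15. Of 4 other bright COL12A1 probe sets 1 went the opposite way (-1.19), and the mean of all gave 1.15. Integrins gave 3 of 17 higher (17.6%) and 2 lower (11.8%) at 2-fold. They were led by ITGB8, an activator of latent TGF-beta, at 4.69, 5.46, 9.31 and 9.63, and ITGB2, the leukocyte integrin chain, at 4.51, 6.92, 7.51 and 7.42. Of 12 S100 proteins 5 were higher and 0 lower at 2-fold, and S100A3 read 7.54, 7.51, 10.51 and 10.71.

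Genes of cell division were lower in the siRNA control. Of 50 mitosis and spindle genes, all kept, 48 were lower, 18 of them at 2-fold, with 0 higher at 2-fold and a median of -0.82. PLK1, the kinase that drives mitotic entry, read 9.66, 9.39, 6.37 and 6.17. TOP2A, the topoisomerase of dividing cells, read 12.34, 12.26, 10.20 and 10.73, and BIRC5, survivin, read 10.92, 10.77, 9.49 and 9.42. CCNA2, cyclin A, read 11.10, 10.75, 9.57 and 9.80. On all of these the siRNA arrays were both below the shRNA arrays, and PLK1 had the largest difference of the 50. PLK1 has 1 probe set, so no second reading of that step exists here.

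Replication and nucleotide synthesis genes were lower in 38 of 45, 18 of them at 2-fold, with a median of -0.78. CCNE2, cyclin E2, read 10.54, 10.06, 8.09 and 8.01, GINS4, part of the replicative helicase, read 8.60, 8.23, 6.45 and 6.51, and CDC45 read 9.06, 8.44, 7.48 and 7.36. The ZEB2-lowered pair had medians of -0.73 for mitosis and -0.44 for replication, and 13 mitosis genes but 3 replication genes were 2-fold lower in both pairs. In UHRF1, which keeps DNA methylation through replication, the values were 11.39, 10.81, 10.02 and 10.25, with shRNA ZEB2 between the shRNA vector control and the siRNA arrays. Lamin B1, LMNB1, read 9.39, 9.95, 6.84 and 6.65, and CDCA7 read 9.78, 9.44, 7.17 and 6.74. Cyclins, CDKs and their inhibitors outside these lists gave 1 of 20 higher at 2-fold (CDKN1C, an inhibitor, at 1.57) and 1 lower (RBL1, a retinoblastoma relative, at -1.24). Histone genes gave 4 of 14 higher (28.6%) and 2 lower (14.3%), against 10.8% and 4.99% of all genes.

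The E2F motif, TTTGGCGC on either strand, was found in the windows of 10 of 38 replication genes with a promoter entry and in 0.795% of all genes' windows. The 10 with it had a median difference of -0.73 and the 28 without it -0.77, so both sets were lower. A stretch is shown for POLE2, a subunit of the leading-strand polymerase, whose level was 10.57, 9.99, 8.96 and 9.22. The capitals mark the reverse complement of the motif.
POLE2 (chr14:49688182-49688249, - strand): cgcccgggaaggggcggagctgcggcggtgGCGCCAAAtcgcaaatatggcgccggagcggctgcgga

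Amino acid response genes under ATF4 were higher, and in several of them the shRNA vector control alone lay apart. Of 33 kept, 31 were higher, 18 at 2-fold and 0 lower at 2-fold, with a median of 1.45. ASNS, asparagine synthetase, read 7.65, 10.53, 11.11 and 10.63, and CHAC1, which breaks down glutathione, read 5.75, 7.26, 8.30 and 8.07. DDIT4, an inhibitor of mTORC1, read 8.40, 10.83, 10.95 and 10.34. In ASNS and DDIT4 the shRNA ZEB2 array matched the siRNA arrays, and the ZEB2-lowered pair differed by 0.10 and -0.49. CTH, which makes cysteine, read 7.05, 9.42, 11.69 and 12.07, and NUPR1, a stress cofactor, read 4.78, 6.73, 10.50 and 10.10. These 2 were higher in both pairs. Over the list the ZEB2-lowered median was 0.49, and 5 genes were 2-fold higher in both.

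GDF15, a stress cytokine on the p53 list, read 5.79, 7.48, 10.43 and 10.09, and INHBA, which encodes the activin A chain, read 4.48, 7.67, 9.40 and 8.85. The ATF4 motif (CARE), TGATGNAA on either strand, was present in 11 of 28 windows of the list and in 4.46% of all. Kept genes with it had a median of 1.06 and those without it 1.45. The stretches for ASNS and CHAC1 are shown with the motif in capitals, as its reverse complement in CHAC1.
ASNS (chr7:97872439-97872506, - strand): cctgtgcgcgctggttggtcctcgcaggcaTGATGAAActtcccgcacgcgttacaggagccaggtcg
CHAC1 (chr15:40953232-40953299, + strand): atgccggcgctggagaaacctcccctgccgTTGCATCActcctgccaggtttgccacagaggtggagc

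Sterol genes followed the same layout. Of 20 kept, 18 were higher, 12 at 2-fold and 0 lower at 2-fold, with a median of 1.06, and the ZEB2-lowered median was 0.21. INSIG1, the sterol-regulated anchor of SREBP, read 9.85, 11.56, 11.58 and 11.07. LSS, lanosterol synthase, read 9.34, 10.80, 11.35 and 10.98, and MSMO1, a later enzyme of the pathway, read 10.38, 11.29, 12.24 and 11.78. In INSIG1 and LSS the shRNA vector control was lower than the other 3 arrays by 1.23 or more. SQLE, squalene epoxidase, read 7.90, 8.07, 9.89 and 9.41 and was higher in both pairs. Another probe set of SC5D went the opposite way, and the mean of its probe sets differed by 0.13 against 1.76. For LSS, too, another probe set went the opposite way (-0.39), and the mean was 1.44 against 2.01. Fatty acid genes were less even, with 7 of 24 higher and 2 lower at 2-fold. SCD, the stearoyl desaturase, read 10.20, 12.11, 13.24 and 12.90. Of its 3 other bright probe sets 2 went the opposite way, and the mean over its probe sets was 1.30, and -1.17 in the ZEB2-lowered pair. FASN, fatty acid synthase, read 7.84, 8.91, 9.83 and 9.27, and FABP5, a fatty acid carrier, read 10.79, 9.54, 9.15 and 8.92.

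Lysosomal and autophagy genes were higher in 28 of 30, 15 of them at 2-fold, with a median of 1.01, and 0 were lower at 2-fold. NPC2, a sterol carrier of the lysosome, read 11.46, 12.52, 13.36 and 13.28, CTSA, a lysosomal carboxypeptidase, read 10.14, 10.38, 11.85 and 11.81, and LAMP3 read 5.14, 5.06, 7.41 and 7.37. CTSA and LAMP3 separated by method, whereas shRNA ZEB2 was between the controls for NPC2. The ZEB2-lowered median was 0.73, though only 3 of the genes were 2-fold higher in both pairs. GUSB, often used as a reference gene, is a lysosomal enzyme and read 9.0, 9.75, 10.76 and 10.62. Of 20 subunits of the vacuolar proton pump 1 was at 2-fold, ATP6V0D2, which read 6.85, 6.41, 8.02 and 6.28.

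Among stress programmes, the oxidative stress list had 6 of 25 higher and 0 lower at 2-fold. The aldo-keto reductases AKR1C1 and AKR1C3, which reduce steroids and reactive carbonyls, read 7.61, 7.71, 10.89 and 11.58 and 7.63, 9.97, 11.17 and 11.60. These genes are close copies and their probe sets can read one another. Hypoxia and glycolysis genes gave 10 of 34 higher and 3 lower, among them VEGFA, the vessel growth factor, at 10.24, 11.15, 12.32 and 12.88, and NDRG1 at 9.13, 10.43, 11.62 and 11.77. PKM, pyruvate kinase, was lower at 12.29, 12.29, 10.18 and 10.07, yet its other bright probe set differed by -0.42. Endoplasmic reticulum chaperones gave 2 of 24 higher and 1 lower, HSP90B1, at 11.92, 11.28, 10.17 and 9.84. Heat shock genes were level apart from HSPB8, a small chaperone, at 5.23, 7.82, 10.56 and 10.77, whose mean over probe sets differed by 2.82.

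Immediate-early factors split 7 higher and 7 lower of 30 at 2-fold. That was 23.3% each way, against 10.8% of all genes higher and 4.99% lower. EGR1 read 8.31, 7.75, 6.29 and 5.88, FOS read 7.0, 6.05, 5.03 and 5.18 and FOSL1 read 11.29, 11.92, 9.80 and 9.66, all lower in the siRNA control. KLF4, a factor of epithelial differentiation, read 9.68, 9.39, 11.41 and 11.51, and DUSP1, a phosphatase of MAP kinases, read 9.96, 10.67, 11.90 and 12.11, both higher. ATF3 read 6.31, 7.72, 8.28 and 7.83, with the shRNA vector control alone low.

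In the TGF-beta, BMP and activin list 8 of 34 were higher and 4 lower. ID1, an inhibitor of differentiation induced by BMP, read 12.52, 10.08, 7.63 and 7.71, the largest negative difference at -4.89, 29.6-fold. ID3 read 8.55, 6.21, 5.21 and 5.37, and CCN2, a matricellular protein, read 12.57, 11.82, 10.29 and 10.33. SMAD9, an effector of BMP signalling that is outside the list, read 7.64, 6.44, 4.05 and 4.03. For ID1 and SMAD9 the shRNA ZEB2 array lay between the shRNA vector control and the siRNA arrays. BAMBI, a decoy receptor that blunts the pathway, read 8.29, 6.61, 10.79 and 10.43, and TGFBR3, betaglycan, read 8.24, 8.02, 10.98 and 11.21. FST, the activin binder follistatin, read 8.28, 10.03, 10.70 and 10.52.

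Wnt genes gave 3 of 30 higher at 2-fold (10%, against 10.8% of all genes) and 5 lower (16.7%, against 4.99%). The lower ones included LEF1, the nuclear partner of beta-catenin, at 9.05, 7.22, 5.76 and 5.23, and the receptor FZD1 at 8.56, 7.73, 7.05 and 6.69. Another LEF1 probe set went the opposite way, and the mean over its probe sets was -1.32. Growth factors and the IGF axis split 6 and 6 of 38, or 15.8% each way. FGF5 read 8.14, 8.25, 5.92 and 6.05, IGFBP4 read 11.50, 11.09, 9.42 and 9.76 and VEGFC, the lymphatic growth factor, read 9.74, 8.79, 11.49 and 11.54. EGFR differed by 1.07 in its brightest probe set and by 0.026 in the mean of all.

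The shRNA vector control stood apart from the other 3 arrays in a further set of genes. CXCR4 read 3.26, 10.53, 10.42 and 10.40, a difference of 7.16 between the controls and -0.14 in the ZEB2-lowered pair. SPANXB1, a testis antigen of the X chromosome, read 4.06, 11.43, 11.70 and 11.50. The long noncoding RNA gene LINC00960 read 4.89, 8.61, 8.92 and 8.77, and FAT3, a giant cadherin, read 3.04, 6.76, 6.76 and 6.95. In all 4 the other 3 arrays were within 0.31 of each other, and the shRNA vector control was under or just above the filter level. GJB2, the gap junction protein connexin 26, read 9.41, 6.37, 6.07 and 6.17, high in the shRNA vector control alone. Of the connexins and pannexins kept, 8 of 8 were lower in the siRNA control, 2 of them at 2-fold (25%, against 4.99% of all genes). AADAC, a microsomal esterase, read 7.58, 4.91, 4.61 and 4.73, ALDH1A3, a retinal dehydrogenase, read 9.53, 7.23, 7.14 and 7.10, and the laminin chain LAMA4 read 7.78, 5.92, 5.44 and 5.79. In each of them, too, it was the shRNA vector control that was high.

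Cancer-testis antigens shared this only in part. Of 17 kept, 7 were higher at 2-fold and 0 lower, with a median of 0.32. The filter removed 12 of the 29 members with a probe set, and the median depended on it. It was 0.15 without the filter and 1.84 with the filter at the 60th percentile. COX7B2, MAGEC1 and MAGEA6, given next, were under the filter level in the shRNA vector control and were kept through other arrays. The counts by direction are thus partly set by the filter. COX7B2, a testis-type cytochrome oxidase subunit, read 3.81, 7.93, 7.25 and 7.32, and MAGEC1 read 4.76, 6.84, 7.54 and 7.41. MAGEA6 read 4.72, 6.12, 7.26 and 7.44, with the siRNA arrays above shRNA ZEB2 as well. Pregnancy-specific glycoproteins, placental proteins of the CEA family, were higher in 9 of 9, 8 at 2-fold, with a median of 3.32, against 1.19 in the ZEB2-lowered pair. PSG5 read 3.13, 7.64, 9.57 and 8.88, PSG9 read 4.78, 7.70, 10.06 and 9.64 and PSG4 read 4.29, 7.64, 9.25 and 8.83. These genes form a cluster of close copies, so a probe set may pick up several of them. Without cross-hybridising probe sets 4 of them were left, with a median of 1.05. SLAMF7, a receptor of lymphocytes, read 3.67, 8.65, 10.79 and 10.77, and L1CAM, a neural adhesion protein, read 5.34, 9.09, 10.49 and 10.19, both with shRNA ZEB2 nearer to the siRNA arrays than to its own control.

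Several of the highest genes belong to none of the lists. UCA1, a long noncoding RNA first known from bladder carcinoma, read 5.25, 8.55, 13.46 and 13.80 and had the largest difference, 8.22 or 297-fold. PRSS35, a protease-like protein, read 3.79, 3.45, 9.51 and 9.92, ALPP, placental alkaline phosphatase, read 4.77, 5.13, 9.57 and 9.55, and SLC6A12, a betaine transporter, read 4.75, 4.75, 9.47 and 9.36. These 3 were at or under the filter level on at least 1 shRNA array and between 9 and 10 on the siRNA arrays. Of the 1625 higher genes, 211 (12.98%) were under the filter level in the shRNA vector control, and of the 752 lower genes, 72 (9.574%) were under it in the siRNA control. The folds of such genes rest on the dim end of the scale.

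On the lower side, ADGRF1, an adhesion receptor, read 8.43, 8.72, 4.52 and 4.41, with 3 other probe sets at 2-fold the same way. AKAP12, a scaffold of protein kinase A, read 10.71, 8.84, 6.87 and 6.98, again with 3 others. RGS4, a brake on G protein signalling, read 10.55, 8.85, 7.16 and 6.28. SLC40A1, the iron exporter ferroportin, read 7.45, 7.45, 4.23 and 4.30, level within each method, though its other bright probe set differed by -0.21. BANF1, a chromatin-binding protein, read 12.79, 12.82, 9.29 and 9.21, and GTF2I, a general transcription factor, read 8.69, 9.37, 5.10 and 5.10. NAA15, a subunit of the N-terminal acetyltransferase, differed by -3.86 in its brightest probe set, by -1.31 and -0.45 in its other bright ones and by -0.99 in the mean of all.

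Genes that went opposite ways in the pairs were few, 10 at 2-fold, of which 8 were higher in the siRNA control. INHBB, the activin B chain, read 4.98, 8.66, 7.15 and 6.94, and PGM5, a relative of phosphoglucomutase, read 3.80, 8.38, 5.17 and 4.99. HAS2, hyaluronan synthase, read 5.85, 8.02, 7.39 and 6.68. In each the shRNA vector control was lowest and shRNA ZEB2 highest, with the siRNA arrays between them. The difference between the pairs was not tested.

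Lists of basic cell machinery had few genes at 2-fold. Of 41 cytosolic ribosomal proteins 0 were at 2-fold, with a median of 0.23, and the largest differences were RPL31 at 0.75 and RPS18 at 0.75. Of 60 respiratory chain genes 3 were higher (ATP5PO, NDUFA2 and UQCRQ), with a median of 0.11. Of 27 constitutive proteasome subunits 1 was lower (PSMD11, at -1.19), with a median of -0.12. Splicing factors gave 1 of 34 higher and 4 lower at 2-fold (11.8% lower, against 4.99% of all genes), with a median of -0.33 and 25 of 34 lower to any extent, and a median of -0.29 in the ZEB2-lowered pair. Among them were HNRNPH1 at 12.89, 12.72, 11.12 and 11.34 and CLK4, a splicing kinase, at 7.60, 8.05, 8.93 and 9.22. With 15.8% of all genes at 2-fold either way, the shares of these 4 lists at 2-fold either way were at or under the background, while those of cytokines, interferon genes, sterol enzymes and mitosis genes were above it.

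**Figure D4:**
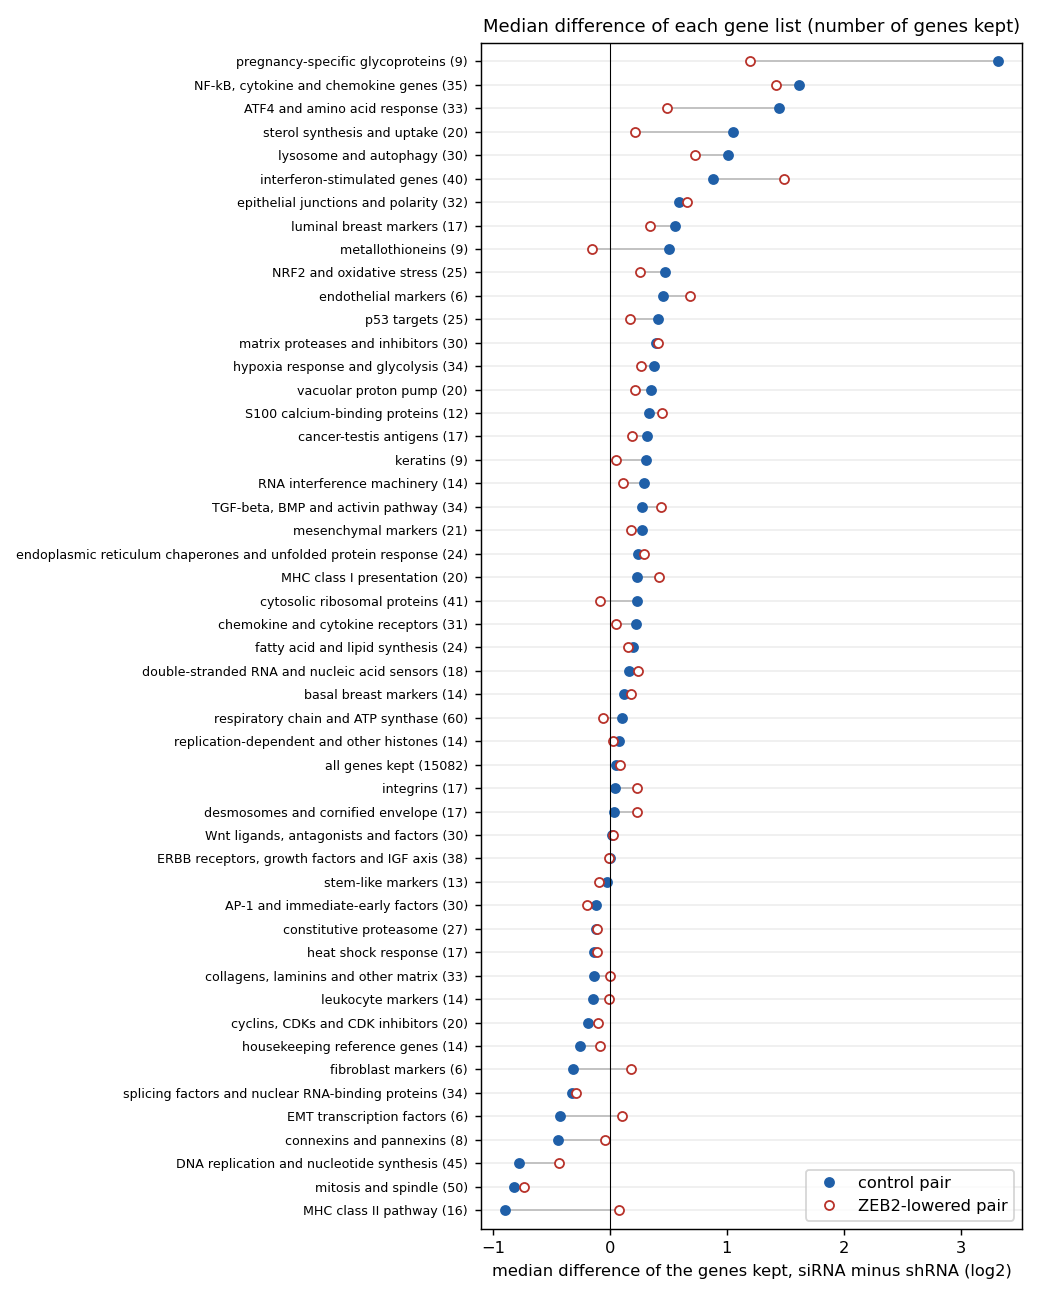
Median log2 difference, siRNA minus shRNA, of each of 49 gene lists and of all genes kept, with filled circles for the control pair, open circles for the ZEB2-lowered pair and the number of genes in brackets. Cytokine, interferon and epithelial lists lie right of 0 in both pairs and mitosis left of it in both, whereas MHC class II, sterol and pregnancy-specific glycoprotein genes have circles far apart.

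The sole test the 4 arrays allow takes the method difference over both ZEB2 states, with limma and the ZEB2 state as a block. Its p-values rest on 1 residual degree of freedom and measure how far the method difference varies between the ZEB2 states, not the spread between cultures. The gap between the 2 pairs is thus the error of the test. Genes picked for alike or unlike differences in the pairs therefore have their outcome largely set in advance. The calls of named genes below are a description and add no support. At a Benjamini-Hochberg adjusted p of 0.05 it called 1040 genes (6.9%), 705 higher (4.67%) and 335 lower (2.22%) on the siRNA arrays, and 955 of them were 2-fold the same way in both pairs. The smallest adjusted p was 0.0238. IL6 (limma adjusted p = 0.0293), CXCL1 (0.0258), MX1 (0.0346), CDH1 (0.0238) and PLK1 (0.0258) were among those called. Genes with the shRNA vector control alone apart were not, such as CXCR4 (limma adjusted p = 0.277), HLA-DRA (0.169) and ASNS (0.248), and nor were ID1 (0.0592) and CD24 (0.0524), where the size differed between the ZEB2 states. By list, limma called 15 of 35 cytokine genes higher, 12 of 40 interferon genes higher, 14 of 50 mitosis genes lower and 2 of 45 replication genes lower. The counts called moved from 248 without the filter to 2943 without the block.

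The genes with several probe sets give a second reading of each array. Of 877 genes that were 2-fold higher and had another probe set above the filter level, 376 (42.9%) had another at 2-fold the same way, and in 548 (62.5%) all others had the same sign. For 440 lower genes the counts were 268 (60.9%) and 354 (80.5%). Over all 7584 genes with another reading, 53.4% had all others of the same sign. CXCR4, AKAP12, ADGRF1, CD24 and INHBA were among those read alike by at least 2 other probe sets, while KLF13, AFF3 and PARD6B were not.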

How the data were processed

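Values were read from the deposited table of 4 Affymetrix U133 Plus 2 arrays with 54675 probe sets. They are log2 expression values from RMA (affy), by the authors, according to the submitters' processing notes, with versions not given in the sources used here. This method brings the arrays to a common distribution (medians 5.34 to 5.37) and compresses differences of dim genes, and no measure of detection per probe was used here. The precision is limited by 1 array a group.

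Of the probe sets, 41097 carried 1 symbol in the platform annotation, 1801 several and 11777 none in the table used here. A gene was read by its brightest probe set over the 4 arrays and kept when its highest value reached the 40th percentile, 4.77, which removed 4693 genes. Differences were counted at 2-fold. limma 3.58.1 in R 4.3.3 (intensity trend, 2-sided, Benjamini-Hochberg) tested the method over both ZEB2 states. That step was also run on simulated data, where its only pass rule applied to genes given a small, equal spread. The rule does not show how the test performs at the spread of these arrays. Promoter windows came from RefSeq (GRCh38.p14). Python 3.11.15 and matplotlib 3.10.9 were used for counts and figures.

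The 49 lists, of 1337 genes, and the comparison itself were chosen with earlier results of these data known. Among these genes 141 lacked a probe set in the table used here and 90 were under the filter level. Named genes are ZEB2, the markers of the line, the 20 highest and 20 lowest differences, the 12 highest and 12 lowest shared by both pairs, the 8 largest each way in the control pair alone, the 5 largest opposite ones, and up to 8 members a list at 2-fold, or otherwise its largest 2. Others are said to be named after their values were seen.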

Additional observations from a re-analysis of the deposited data

Results flagged for a closer look

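In 10 genes the pairs differed in opposite directions, each by at least 2-fold. In 8 of them the siRNA array was above its shRNA counterpart between the controls and below it between the ZEB2-lowered arrays. The control differences were 2.17 for INHBB, 1.38 for PGM5, 1.54 for HAS2, 1.79 for LDOC1, 1.16 for MEF2C, 2.14 for IL11, 1.89 for LOX and 1.90 for NRK. In the ZEB2-lowered pair they were -1.72, -3.39, -1.34, -1.17, -1.20, -1.06, -1.003 and -1.07. The other two, BMPR1B and TSPAN8, went the reverse way, at -1.67 and -1.03 between the controls and 1.16 and 1.18 in the ZEB2-lowered pair. With 1 array a group the difference between the pairs was not tested. PGM5 rested on 1 probe set, and another went the opposite way in the control pair.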

How the results depend on the processing

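Each group has 1 array, so no replicate could be left out and no numbers pair replicates. The limma fit took the arrays as a pair within each ZEB2 state. The count of 2-fold genes between the controls, 2377, stayed within 1.5 times under the changes of filter, centring and normalization, without cross-hybridising probe sets, and with each gene averaged over its probe sets, where 1068 genes were higher. At 1.5-fold it was 5132 (3307 higher, 1825 lower, 3000 in both pairs), and at 3-fold 854 (629 higher, 225 lower, 343 in both pairs). Among genes whose other probe sets share the sign, a restriction chosen after seeing the data that leaves fewer genes, it was 902 (548 higher, 354 lower, 439 in both pairs). The limma count, 1040, moved most. It was 2343 with the mean of probe sets (1185 higher, 1158 lower), 248 without the filter (186 and 62), 2078 with the filter at the 60th percentile (1362 and 716), 2105 after median centring (1422 and 683), 2490 after quantile normalization (1657 and 833), 2117 after cyclic loess (1334 and 783) and 2943 without the ZEB2 block (1954 and 989). The cause of these moves was not tested. List medians held in 358 of 392 recomputed values, among them all 49 under each of median centring, quantile normalization and cyclic loess. With the mean of probe sets 13 of 49 moved. Cytokine genes fell from 1.61 to 1.07, ATF4 genes from 1.45 to 1.13, sterol genes from 1.06 to 0.75 and lysosomal genes from 1.01 to 0.69. With the filter at the 60th percentile 12 of 49 moved. The sign of the median changed under at least 1 alternative in 13 of 49 lists, 8 of them with a median of at most 0.2 in size. With the mean of probe sets it went from 0.29 to -0.21 for the RNA interference machinery, from 0.24 to -0.075 for endoplasmic reticulum chaperones and from -0.32 to 0.35 for fibroblast markers, which were at 0.15 with the filter at the 60th percentile. For EMT factors it went from -0.43 to 0.0036 with that filter or one on the mean. The median of the metallothioneins turned from 0.51 to -0.057 without cross-hybridising probe sets, which left 3 genes, and PARD6B from 1.68 to -0.0074 with the mean of its probe sets. Of 2296 recomputed values of named genes, 53 dropped under 2-fold, 44 of them with the mean of all probe sets.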

Other observations

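In the genes described as apart above, the vector control was the shRNA array farther from the siRNA arrays. They were described as apart for that reason, so this is no finding. Genes with shRNA ZEB2 alone apart were not counted. By the same choice, 187 genes higher and 83 lower by 2-fold between the controls were within 0.32 of 0 in the ZEB2-lowered pair. They included AFF3, a nuclear factor of lymphoid cells, at 3.35, 6.61, 6.63 and 6.43 in the array order used above, and CHRDL1, a BMP antagonist, at 3.98, 6.84, 6.87 and 6.54. LAMA2, a laminin chain, stood the other way at 8.15, 5.62, 5.88 and 5.85. AFF3 rested on 1 of its 6 probe sets, and the mean of all gave 0.48.

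Growth factor genes that were dim on the siRNA arrays included BTC, an EGF-family ligand, at 4.96, 3.98, 2.95 and 2.97, and FGFR3 at 5.94, 4.70, 4.16 and 4.71. CYBB, the phagocyte oxidase subunit, read 6.28, 6.32, 3.51 and 3.68. Each of these was under the filter level of 4.77 on both siRNA arrays.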
